A study of Homo sapiens with 21 samples.

Results

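ZR-75-1 and T47D are established human breast cancer lines of the luminal, oestrogen receptor-positive (ER+) kind, and the difference between them was measured here on their untreated arrays. The comparison rests on 4 of the series' 21 arrays, namely those whose titles give ZR-75-1 with DMSO (replicates 1 and 2) and T47D with DMSO (replicates 1 and 2). DMSO is the solvent of THZ1, a covalent inhibitor of the transcription kinase CDK7, and the cells had been kept in it for 6 h. The series compares the response to THZ1 at 50 and 250 nM across 4 lines, of which MDA-MB-468 and BT-549 are triple-negative (without oestrogen receptor, progesterone receptor or amplified HER2). For ZR-75-1 the labels state ER positivity, and for T47D they state positivity for ER and for the progesterone receptor. The source name field of these samples gives another line, so the groups follow the titles and the cell line field. MDA-MB-468 had 2 untreated arrays and BT-549 had 1, and both are used below only for comparison.

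Luminal breast cancer cells keep features of the secretory cells that line the milk ducts. Oestrogen binds its receptor, encoded by ESR1, which sits on DNA together with the pioneer factor FOXA1 and the factor GATA3 and switches on genes such as TFF1, GREB1 and PGR. PGR encodes the progesterone receptor, so its level is used in the clinic as a readout of a working oestrogen receptor.

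Each array was an Affymetrix PrimeView chip read as MAS5 intensities, a linear measure of probe brightness. The mean log2 intensity of 23 probe sets made to report background lay between 4.66 and 4.80 on the 4 arrays, and a gene is called above background where its value passed that of its own array. The 2 ZR-75-1 arrays correlated at r = 0.991 and the 2 T47D arrays at r = 0.993 across 49395 probe sets, while arrays of different lines correlated at 0.925 to 0.926. The labels do not say that the replicates were separate cultures, and the p-values therefore rest on the spread of array pairs that may be technical repeats. With bulk RNA, fewer cells of a state and less RNA per cell cannot be told apart.

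Markers of the labelled cell type were strong in both lines. In ZR-75-1 the luminal keratin gene KRT8 read 11690.1 and 13059, while T47D gave 9536 and 8855, and its partner KRT18 was at 16342 and 17764 against 14114 and 13673. ESR1 and PGR, the receptors the labels name, were above background on all 4 arrays. Markers of other cells were dim. Of 16 immune cell markers, 9 to 10 passed background on each array, but none exceeded an intensity of 92.3, and their summed intensity was 643 to 654 in ZR-75-1 and 532 to 606 in T47D. The pan-leukocyte gene PTPRC and the T cell gene CD3D were at or below background on all 4 arrays. The 15 fibroblast and endothelial markers summed to 491 to 503 in ZR-75-1 and 605 to 608 in T47D, with ACTA2, the smooth muscle actin gene, as the T47D maximum at 146.

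The lines differed widely. Of 12644 genes tested, 7974 (63.1%) passed an adjusted p of 0.05 in limma with Benjamini-Hochberg adjustment, 3281 of them higher in ZR-75-1 (25.9% of the genes tested) and 4693 higher in T47D (37.1%). Replicates lay close together, so that small differences were called too. The median size of the difference over all genes was 0.42 on the log2 scale, with a median standard error (SE) of 0.11. At least a 2-fold difference was seen for 911 genes higher in ZR-75-1 (7.20%) and 1564 higher in T47D (12.4%). At least a 4-fold difference was seen for 256 genes higher in ZR-75-1 (2.02%) and 388 higher in T47D (3.07%), and at least a 16-fold difference for 41 and 63. By contrast, only 19 genes differed by 2-fold or more between the 2 ZR-75-1 arrays and 7 between the 2 T47D arrays. The median over all genes was -0.09 (ZR-75-1 minus T47D), and all differences below are given in that direction, as log2 values with their SE.

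**Figure D1:**
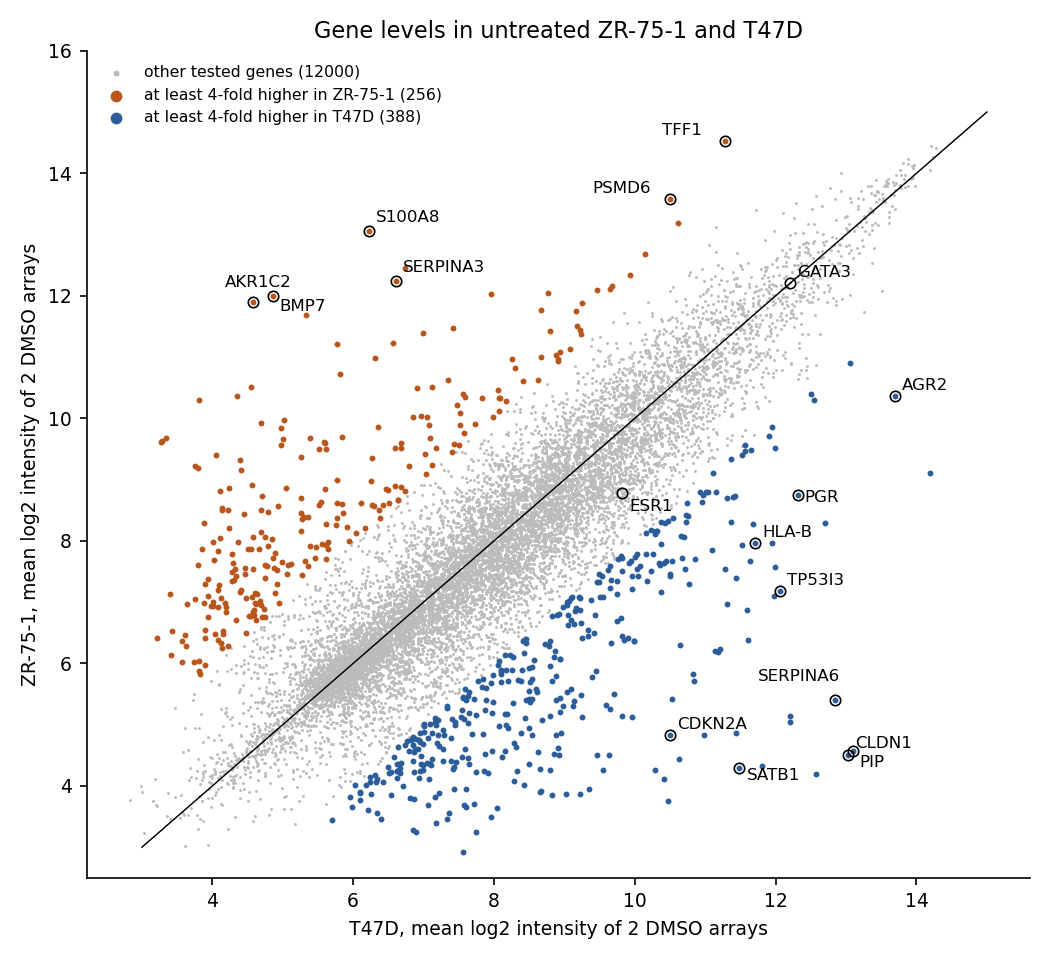
Mean log2 intensity of each tested gene in untreated T47D (x axis) and untreated ZR-75-1 (y axis), 2 arrays each, with a line of equality. Genes at least 4-fold higher in ZR-75-1 (256, orange) lie above the line and those at least 4-fold higher in T47D (388, blue) below it, while GATA3 lies on it.

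Some genes were on in 1 line and at background in the other. There were 147 genes (1.16%) that were higher in ZR-75-1, above background on both its arrays and on neither T47D array, and 204 (1.61%) of the reverse kind. Against a floor at the background of the dim arrays, 71 of the first were at least 4-fold higher and 14 at least 16-fold, and 78 and 19 of the second. Such folds are lower bounds and are written as "at least" below.

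The 12 largest differences towards T47D were in genes of many kinds. PIP, which encodes a protein secreted by apocrine and mammary epithelium, was at 27.3 and 20.5 in ZR-75-1, against 8559 and 8954 in T47D (-8.53 ± 0.13, adjusted p = 5.65e-17 in limma), and 1 of the 2 ZR-75-1 values passed background. CLDN1, a claudin of tight junctions, was at 20.1 and 25.9 against 8497 and 8222, at least 308-fold higher in T47D. GNG11, a G protein gamma subunit, was at 16.7 and 20 against 5687 and 6590.2, at least 225-fold. These 3 genes were bright in T47D and close to background in ZR-75-1. SERPINA6, the carrier of glucocorticoids in blood, was at 41.2 and 43.7 against 7795 and 6974 (-7.44 ± 0.10). SATB1, an organiser of chromatin loops, was at 19.4 and 20 against 2854 and 2884, at least 106-fold higher in T47D. AGR3, a protein disulphide isomerase relative, differed by -7.17 ± 0.16, the LIM domain gene CRIP1 by -7.07 ± 0.10, and the actin-binding calponin gene CNN3, above background on 1 of 2 ZR-75-1 arrays, by -6.57 ± 0.11. In ZR-75-1, AGR3 (29.6 and 36.4) and CRIP1 (34.9 and 35.6) were close to background, on which the size of their differences rests. EMC10, a subunit of the membrane insertion complex of the endoplasmic reticulum, was at least 132-fold higher in T47D, the keratin KRT23 at least 50.5-fold, the iron exporter SLC40A1 at least 58.4-fold and LRRN3 at least 52.3-fold.

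The 12 largest differences towards ZR-75-1 were likewise in genes of many kinds. AKR1C2, an aldo-keto reductase that acts on steroids, was at 3698 and 3909.9 in ZR-75-1, against 24.3 and 23.7 in T47D, at least 147-fold higher in ZR-75-1, and its neighbour AKR1C1 was at 790.2 and 778 against 8.94 and 10.5, at least 30.3-fold. The 2 are near-identical copies whose probe sets may share signal. The bone morphogenetic protein gene BMP7 was at 4022 and 4154 against 29.7 and 28.2 (7.14 ± 0.16). Its T47D values lay just over the backgrounds of those arrays, 25.3 and 26.5. S100A8 and S100A9, which pair as the calcium-binding protein calprotectin, were both high in ZR-75-1. S100A8 was at 8707 and 8383 against 74.1 and 75.6 (6.83 ± 0.11), and S100A9 at 5431 and 5785 against 106 and 107 (5.72 ± 0.07). ME1, the cytosolic malic enzyme that supplies NADPH, was at least 48.9-fold higher in ZR-75-1, the ketone body enzyme OXCT1 at least 51.1-fold, the WNT receptor FZD6 at least 30.6-fold and the ephrin receptor EPHA3 at least 31.5-fold. S100A14 differed by 6.36 ± 0.12, the small RNA methyltransferase HENMT1, above background on 1 of 2 T47D arrays, by 5.96 ± 0.09 and the protease inhibitor SERPINA3 by 5.63 ± 0.07.

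The promoters of 6 of these genes show the range of sequence at which such differences stood. They are RefSeq windows of 300 bases on GRCh38.p14, from 250 bases before to 50 after the annotated start, printed 5′ to 3′ with each CpG dinucleotide in capitals. PIP (chr7:143131827-143132126, plus strand) has 3 CpG dinucleotides, S100A8 (chr1:153391139-153391438, minus strand) has 2, and AKR1C1 (chr10:4963165-4963464, plus strand) and AKR1C2 (chr10:5003808-5004107, minus strand) have 3 each. CLDN1 (chr3:190322397-190322696, minus strand) has 31, at an observed over expected ratio of 0.921, and PGR (chr11:101129028-101129327, minus strand) has 15 at 0.506. The AKR1C1 and AKR1C2 windows share an unbroken run of 245 bases.
PIP: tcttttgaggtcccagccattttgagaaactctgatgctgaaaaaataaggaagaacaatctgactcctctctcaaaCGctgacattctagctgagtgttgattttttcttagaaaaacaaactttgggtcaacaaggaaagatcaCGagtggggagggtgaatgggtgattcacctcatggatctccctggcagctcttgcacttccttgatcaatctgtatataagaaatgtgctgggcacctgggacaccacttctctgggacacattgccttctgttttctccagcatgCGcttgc
CLDN1: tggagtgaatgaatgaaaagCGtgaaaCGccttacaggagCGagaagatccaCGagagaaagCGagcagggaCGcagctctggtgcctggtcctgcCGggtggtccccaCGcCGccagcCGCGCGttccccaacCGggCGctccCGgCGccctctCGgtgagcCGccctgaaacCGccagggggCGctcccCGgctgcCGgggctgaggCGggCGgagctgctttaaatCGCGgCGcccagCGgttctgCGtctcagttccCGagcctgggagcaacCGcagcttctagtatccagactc
PGR: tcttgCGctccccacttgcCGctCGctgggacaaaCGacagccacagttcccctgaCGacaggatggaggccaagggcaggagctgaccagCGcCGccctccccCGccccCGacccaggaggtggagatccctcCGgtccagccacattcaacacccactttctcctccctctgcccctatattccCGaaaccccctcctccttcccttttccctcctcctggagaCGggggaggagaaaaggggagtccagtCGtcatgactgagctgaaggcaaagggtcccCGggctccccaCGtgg
S100A8: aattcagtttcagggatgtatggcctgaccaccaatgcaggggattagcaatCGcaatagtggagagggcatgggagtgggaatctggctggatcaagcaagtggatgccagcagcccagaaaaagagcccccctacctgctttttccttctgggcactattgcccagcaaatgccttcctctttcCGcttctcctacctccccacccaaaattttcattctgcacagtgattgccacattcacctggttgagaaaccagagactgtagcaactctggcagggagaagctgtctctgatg
AKR1C1: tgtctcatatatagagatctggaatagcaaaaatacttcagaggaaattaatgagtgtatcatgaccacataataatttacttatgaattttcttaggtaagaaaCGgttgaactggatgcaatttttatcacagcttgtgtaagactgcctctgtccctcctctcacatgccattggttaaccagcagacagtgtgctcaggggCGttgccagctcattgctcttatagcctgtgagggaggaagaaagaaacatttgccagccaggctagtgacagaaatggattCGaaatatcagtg
AKR1C2: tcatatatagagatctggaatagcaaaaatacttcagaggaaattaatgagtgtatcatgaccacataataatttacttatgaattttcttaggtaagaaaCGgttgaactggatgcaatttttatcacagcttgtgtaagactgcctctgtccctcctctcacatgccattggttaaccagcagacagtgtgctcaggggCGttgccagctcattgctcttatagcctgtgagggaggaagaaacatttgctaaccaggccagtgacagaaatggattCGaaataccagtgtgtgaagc

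Across the genes, a smaller share of the genes that differed most had a CpG-rich window. A ratio of observed to expected CpG of at least 0.6 was found in 80.2% of the 10319 tested genes with a window in the RefSeq table, in 74.2% of 213 genes at least 4-fold higher in ZR-75-1 and in 65.1% of 315 genes at least 4-fold higher in T47D. The median CpG count was 26, 23 and 21 in these groups. The hexamer AGGTCA, a core recognition sequence of oestrogen and related nuclear receptors, was found on either strand in 9.89% of all tested windows, 8.92% of those of ZR-75-1-high genes and 9.84% of those of T47D-high genes. No window of the 4-fold genes held GGTCANNNTGACC, which 0.0291% of tested windows hold. The hexamer can overlap that motif. These are counts of letters in the window and no test was run on them.

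The steroid receptors split between the lines. ESR1 was at 448 and 435 in ZR-75-1, against 928 and 885 in T47D (-1.04 ± 0.15, adjusted p = 1.35e-05), a 2.05-fold difference. Its other 4 probe sets were dimmer and gave -0.28, -0.55, -0.49 and 0.19, of which -0.55 was called, so the size of the ESR1 difference depends on the probe set. PGR was at 459 and 399.8 in ZR-75-1, against 5053 and 5109 in T47D (-3.57 ± 0.13, adjusted p = 1.01e-12), and its 4 probe sets gave differences of -2.87 to -3.57. So the line whose label adds the progesterone receptor had 11.9-fold more of its transcript, and the other line was still above background. The glucocorticoid receptor NR3C1 ran the other way, at 616 and 601 in ZR-75-1 against 158 and 147 in T47D (2.0 ± 0.07). The orphan receptor NR4A2, an immediate early gene, was also higher in ZR-75-1 (1.55 ± 0.14), and the retinoid X receptor RXRB higher in T47D (-1.0 ± 0.08). Of 24 nuclear receptor genes tested, 4 were higher in ZR-75-1 and 10 in T47D, 16.7% and 41.7%, beside 25.9% and 37.1% of all genes.

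**Figure D2:**
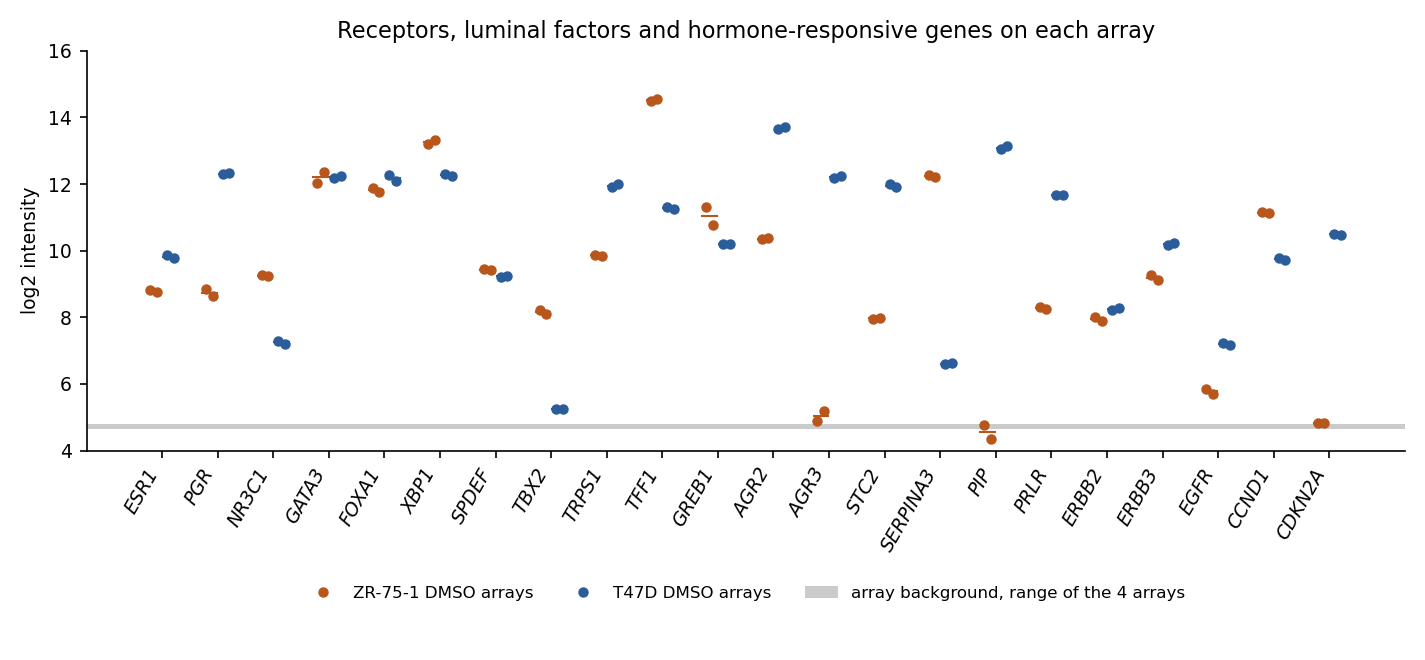
log2 intensity of 22 receptor, luminal and hormone-responsive genes on each of the 4 untreated arrays (points; short lines are means of 2 arrays), with the range of the arrays' background as a grey band. PGR, AGR3 and PIP are high in T47D, TFF1 and SERPINA3 in ZR-75-1, and the GATA3 points of the lines overlap.

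Of the luminal factors in the fixed set of genes, GATA3, FOXA1 and SPDEF differed by less than 2-fold. TBX2, TRPS1, TFAP2A and SOX9 were named for a large statistic within a list, so their larger differences follow from that choice. GATA3 was at 4201 and 5289 in ZR-75-1, against 4653 and 4818 in T47D, so the arrays overlapped and the difference was not called (-0.01, 95% interval -0.19 to 0.18, adjusted p = 0.957). Its other 2 probe sets gave -0.46 and -0.70, both called, so the result depends on the probe set. FOXA1 was lower in ZR-75-1 (3759 and 3505 against 4942 and 4368, -0.36 ± 0.08). SPDEF, an ETS factor of secretory cells, was not called (0.20, 95% interval 0.01 to 0.40, adjusted p = 0.0645), though it passed with median-centred arrays and in 4 other alternatives. Its other probe sets gave 0.33, which was called, and -0.06, which was not. XBP1, the factor that enlarges the secretory apparatus, was at 9468 and 10194 against 5008 and 4832 (1.00 ± 0.07). TBX2, a T-box repressor of senescence genes, was at 298 and 275 in ZR-75-1, against 38.3 and 38.1 in T47D (2.91 ± 0.16). TRPS1, a GATA-type repressor kept in luminal cells, was lower in ZR-75-1 (-2.10 ± 0.06), as were TFAP2A (-2.15 ± 0.09) and SOX9 (-1.6 ± 0.08). Of 35 luminal transcription factors, 15 were higher in ZR-75-1 and 14 in T47D, with a median difference of 0.20. Called in either direction were 82.9% of them, beside 63.1% of all genes, so the list differed more often than genes in general.

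Oestrogen-responsive genes differed in both directions. Of 54 tested, 22 were higher in ZR-75-1 and 25 in T47D (40.7% and 46.3%, beside 25.9% and 37.1% of all genes), 16 and 19 of them by at least 2-fold, with a median difference of -0.18. TFF1, a trefoil peptide and the classical oestrogen-induced transcript, was at 23114 and 23845 in ZR-75-1, against 2537 and 2457 in T47D (3.23 ± 0.06, adjusted p = 6.06e-16). GREB1, a receptor cofactor, was at 2523 and 1764 against 1165 and 1181 (0.85 ± 0.16). Both were higher in ZR-75-1. AGR2, a disulphide isomerase of mucus-secreting cells, was higher in T47D, at 1309.6 and 1325 against 12894 and 13531 (-3.33 ± 0.06). STC2, a secreted glycoprotein, was at 249 and 251 against 4065 and 3836 (-3.98 ± 0.07). PGR, AGR3 and SERPINA3, given above, belong to the same list.

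Genes that respond to progestins, androgens or glucocorticoids were no more uniform, with 12 of 30 tested higher in ZR-75-1 and 7 in T47D. Called in either direction were 63.3% of the 30, close to the 63.1% of all genes. Of all genes, 25.9% were higher in ZR-75-1 and 37.1% in T47D. HPGD, which inactivates prostaglandins, was at 1021 and 916 in ZR-75-1, against 25.2 and 26.6 in T47D (5.22 ± 0.14), where 1 of 2 arrays passed background. PIP and CRISP3, both secreted proteins, were higher in T47D, CRISP3 by -3.48 ± 0.14. PRLR, the prolactin receptor, was at 315 and 304 against 3251 and 3276 (-3.40 ± 0.09). The related growth hormone receptor GHR was at 151 and 163 against 1739 and 1743 (-3.47 ± 0.14).

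Receptors of the ERBB family were higher in T47D where they differed. ERBB3 was at 613 and 559.9 in ZR-75-1, against 1157 and 1193 in T47D (-1.0 ± 0.07), and EGFR at 57.5 and 52.5 against 151 and 145 (-1.43 ± 0.07), both far under its mean of 4267 in MDA-MB-468. The other EGFR probe sets were dimmer. Those at -0.89 and -0.55 were called and the rest, at -0.32 to 0.44, were not, so the EGFR result depends on the probe set. ERBB2, which encodes HER2, was at 257 and 239 against 299 and 313 and missed the threshold (-0.30, 95% interval -0.57 to -0.03, adjusted p = 0.0515), passing it in 4 alternatives. LRIG1, a brake on these receptors, was lower in ZR-75-1 (-2.17 ± 0.11) and the ligand EGF higher (0.96 ± 0.19). Of 17 genes of this family and its 17q12 neighbours, 3 were higher in ZR-75-1 and 9 in T47D (17.6% and 52.9%). Over all genes the shares were 25.9% and 37.1%. Among 34 growth factor receptors and genes of the IGF axis, 11 were higher in ZR-75-1 and 15 in T47D (32.4% and 44.1%). GFRA1, the co-receptor of the GDNF ligand, was at 1467 and 1448 against 143 and 136 (3.38 ± 0.11), and IGFBP5, which binds insulin-like growth factors, was lower in ZR-75-1 (-2.11 ± 0.09). In the PI3K pathway, 9 of 28 genes were higher in each line (32.1% each). The S6 kinase gene RPS6KB1 stood out at 3614 and 3405 against 412 and 402 (3.11 ± 0.07).

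G2/M genes were mostly higher in T47D, while G1 genes were called equally often in each direction. Cyclin D1, CCND1, which starts G1, was at 2282 and 2249 in ZR-75-1, against 872 and 840.3 in T47D (1.4 ± 0.06), and MYC was at 968 and 1044 against 757 and 738 (0.43 ± 0.08). CDKN2A, which encodes the CDK4 inhibitor p16, was at 28.2 and 28.6 against 1459 and 1429 (-5.67 ± 0.08), close to background in ZR-75-1. Its neighbour CDKN2B was not above background on either ZR-75-1 array and at least 2.52-fold higher in T47D, at 64.9 and 72.3. E2F5 was also lower in ZR-75-1 (-1.81 ± 0.09). Of 28 G1 cyclins, CDKs, inhibitors and E2F factors, 10 were higher in each line (35.7% each, beside 25.9% and 37.1% of all genes). Of 39 G2/M genes, in contrast, 7 were higher in ZR-75-1 and 27 in T47D (17.9% and 69.2%), with a median difference of -0.60 where that of all genes was -0.09. The cyclin CCNB2 was at 739.6 and 768 against 2141 and 2092 (-1.49 ± 0.06), the mitotic kinase NEK2 differed by -1.29 ± 0.07 and the cytokinesis gene ECT2 by -1.73 ± 0.08. The checkpoint gene BUB3 was higher in ZR-75-1 (0.74 ± 0.08). Among 45 DNA replication genes, 13 were higher in ZR-75-1 and 20 in T47D (28.9% and 44.4%). The clamp loader subunit RFC4 was at -2.17 ± 0.07 and the ribonucleotide reductase subunit RRM2 at 0.99 ± 0.05.

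Targets of p53 differed in both directions. Of 32 tested, 14 were higher in ZR-75-1 and 15 in T47D (43.8% and 46.9%, beside 25.9% and 37.1% of all genes), with 15 and 12 on median-centred arrays, 16 and 11 under quantile normalization and 8 and 12 without ZR-75-1 replicate 1. TP53I3, a quinone oxidoreductase, was at 149.7 and 142 in ZR-75-1, against 4256 and 4274 in T47D (-4.87 ± 0.09), and the tetraspanin CD82 was at 229 and 189.9 against 1947 and 1758 (-3.15 ± 0.09). GDF15, a stress cytokine, went the other way at 487 and 468 against 90.5 and 103 (2.31 ± 0.10), as did the growth arrest gene GADD45A (2.27 ± 0.07). Of 33 apoptosis genes, 11 were higher in ZR-75-1 and 12 in T47D (33.3% and 36.4%), and the second count was 9 under either scaling. BAX (1.15 ± 0.08) was higher in ZR-75-1. The death receptor FAS (-2.41 ± 0.18), BIRC2 (-1.40 ± 0.06) and BCL2L1 (-0.94 ± 0.09) were higher in T47D.

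BCL2, an oestrogen-responsive survival gene, differed in size by probe set. The brightest of its 6 probe sets over the series read 56.7 and 54.7 in ZR-75-1 and 44.2 and 55.7 in T47D and was not called (0.16 ± 0.16, adjusted p = 0.413). Its other sets were looked at after that value was seen. One read 232 and 232 against 17.2 and 20.8, and another 213 and 216 against 13.6 and 15.1, and neither was above background in T47D. With the mean of all probe sets the gene was called higher in ZR-75-1 (1.61). Of the 644 genes that differed at least 4-fold, 466 had more than 1 probe set and 2 of these had another set called in the opposite direction.

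Antigen presentation genes were mostly higher in T47D. Of 26 tested, 15 were higher in T47D (57.7%, beside 37.1% of all genes) and 4 in ZR-75-1 (15.4%, beside 25.9%), with a median of -0.70. HLA-B was at 249 and 250.4 in ZR-75-1, against 3274 and 3445 in T47D (-3.75 ± 0.06); class I genes are close relatives, and their probe sets may share signal or miss an allele. MICB, a stress ligand for NK cells, was at 204 and 172 against 1683 and 1663 (-3.16 ± 0.08). B2M, the light chain of class I molecules, was also lower in ZR-75-1 (-0.86 ± 0.04), and PSMB8, a subunit of the immunoproteasome, was at 69.5 and 64.6 against 481 and 502 (-2.87 ± 0.08). PSMB10, another such subunit, was higher in ZR-75-1 (1.19 ± 0.06). Of 38 interferon response genes, 12 were higher in each line (31.6% each, beside 25.9% and 37.1% of all genes). IFITM3, which blocks viral entry, was at 1390.4 and 1485 against 118 and 121 (3.59 ± 0.08), ISG20 was higher in ZR-75-1 too (2.32 ± 0.09), and BST2, which tethers budding virions, was lower (-2.11 ± 0.08).

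Of 37 cytokine and NF-kB genes, 16 were higher in ZR-75-1 (43.2%, beside 25.9% of all genes) and 8 in T47D (21.6%, beside 37.1%). The cytokine IL20 was at 664 and 613 in ZR-75-1 and not above background in T47D (18.8 and 23.3), at least 24.7-fold. SOCS2, a feedback inhibitor of cytokine receptors, was at 358 and 371 against 13.6 and 22.9, at least 14.1-fold. In T47D the shared cytokine receptor subunit IL6ST was higher, at 647 and 714 against 2931 and 2939 (-2.11 ± 0.08), and so was the death ligand TNFSF10 (-3.26 ± 0.09). Among 47 NOTCH and WNT genes, 13 were higher in ZR-75-1 and 11 in T47D (27.7% and 23.4%). The second count was 7 without T47D replicate 2. The secreted WNT inhibitor DKK1 was at 771 and 867 against 44.5 and 39.7 (4.28 ± 0.14).

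**Figure D3:**
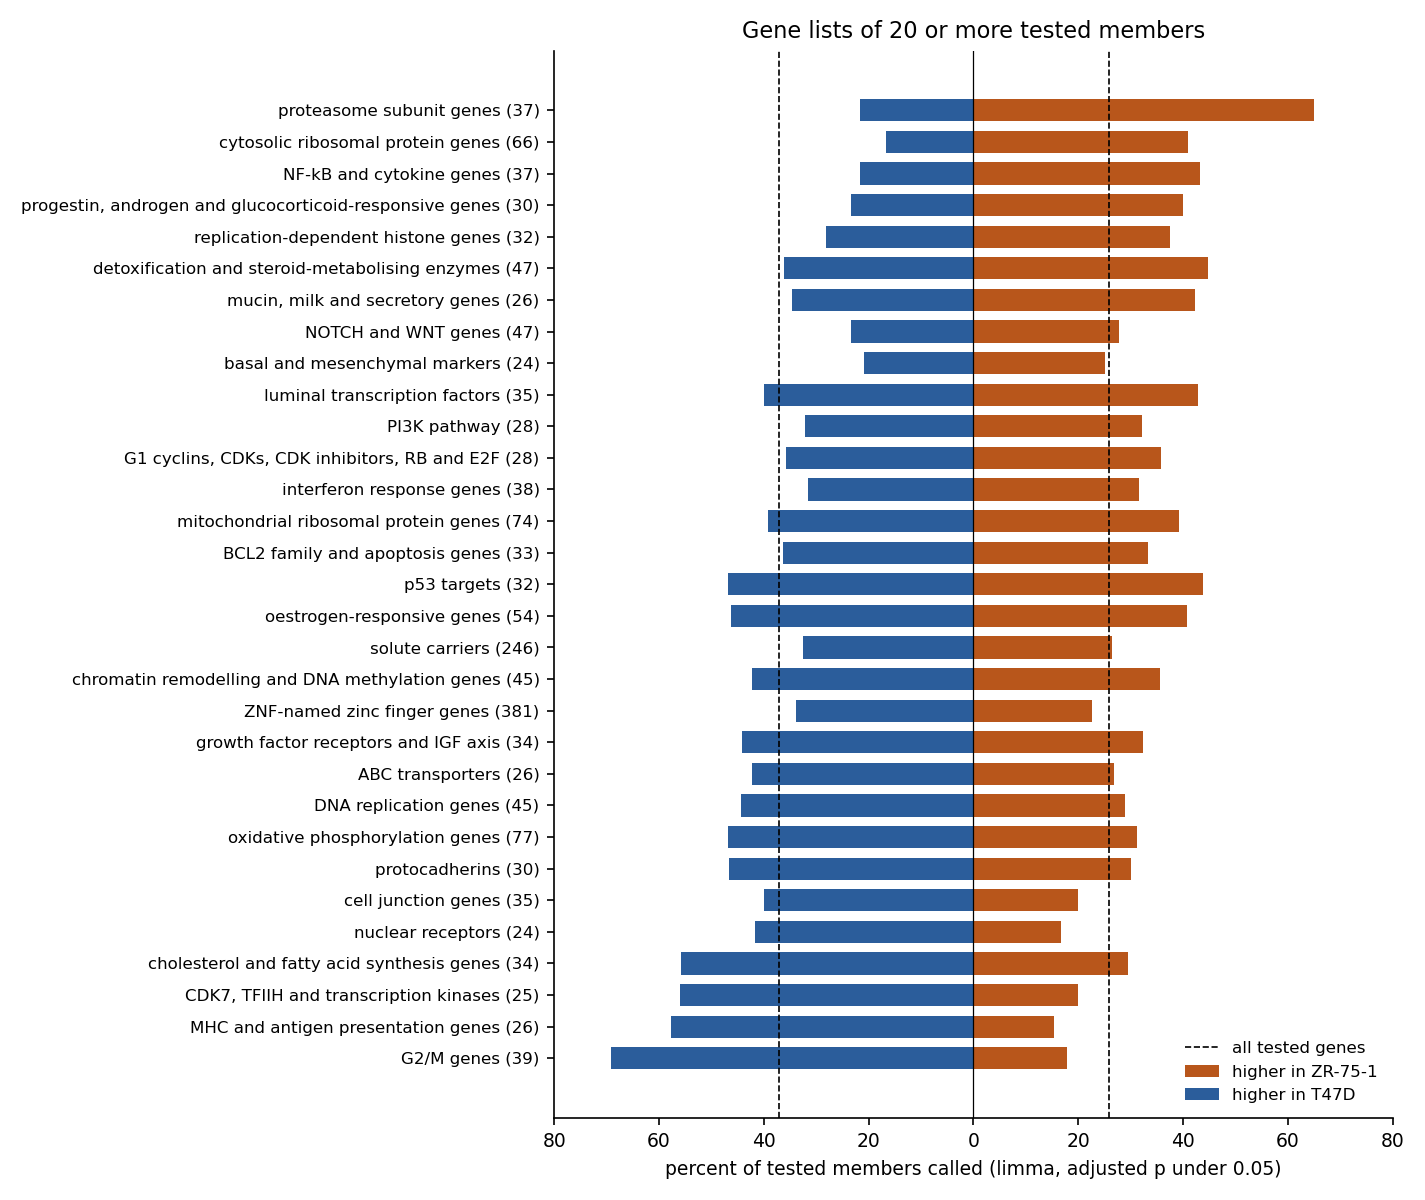
Percent of tested members called higher in ZR-75-1 (orange, right) and in T47D (blue, left) for each gene list with 20 or more tested members, whose number stands in brackets; dashed lines give the percents over all tested genes, 25.9% and 37.1%. Proteasome subunit genes reach furthest towards ZR-75-1 (64.9%) and G2/M genes towards T47D (69.2%).

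Genes of the proteasome, the protease that degrades ubiquitinated proteins, were mostly higher in ZR-75-1. Of 37 tested, 24 were higher there (64.9%) and 8 in T47D (21.6%), beside 25.9% and 37.1% of all genes, with a median of 0.48. PSMD6, a lid subunit, was at 11912 and 12563 against 1451 and 1442 (3.08 ± 0.06). The core subunit PSMA5 was at 7046 and 7547 against 2161 and 2093 (1.78 ± 0.05), and the deubiquitinase PSMD14 differed by 1.33 ± 0.05. Cytosolic ribosomal protein genes showed 27 of 66 higher in ZR-75-1 and 11 in T47D (40.9% and 16.7%), and 1 of these differed by 2-fold or more. That order turned under quantile normalization (16 and 24), the count in T47D was 5 on median-centred arrays, and the first count was 18 without ZR-75-1 replicate 2. Mitochondrial ribosomal protein genes were even at 29 of 74 each (39.2%). Of 77 oxidative phosphorylation genes, 24 were higher in ZR-75-1 and 36 in T47D (31.2% and 46.8%), with COX6C at 1.24 ± 0.07 and NDUFB5 at -1.67 ± 0.07. Genes often used as references differed too, with GAPDH, a glycolytic enzyme, at 15407 and 17669.8 against 7845 and 7702 (1.09 ± 0.07) and the transferrin receptor TFRC at -1.43 ± 0.05.

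Some genes of epithelial structure differed. Beside CLDN1, the desmosomal genes JUP, at 642 and 685 against 2141 and 2259 (-1.73 ± 0.06), and DSG2 (-1.55 ± 0.07) were higher in T47D. The catenin CTNND2 was at 266 and 238 in ZR-75-1 and not above background in T47D, at least 9.71-fold. E-cadherin, CDH1, was at 5789 and 6050 against 5340 and 5201 and was not called (0.17, 95% interval 0.01 to 0.32, adjusted p = 0.0542), with a pass under median-centring and in 2 other alternatives. Of 35 junction genes, 7 were higher in ZR-75-1 and 14 in T47D. Of 17 keratins, 2 were higher in ZR-75-1 (11.8%) and 6 in T47D (35.3%). The 2 were KRT8 (0.43 ± 0.06) and KRT18 (0.29 ± 0.05). Among the 6, KRT7 was at 131 and 129 against 494 and 586 (-2.05 ± 0.07) and KRT15 differed by -1.76 ± 0.09. Of 24 basal and mesenchymal markers, 6 were higher in ZR-75-1 and 5 in T47D. CD44, the hyaluronan receptor, was higher in ZR-75-1 (1.5 ± 0.12) and the integrin ITGA6 in T47D (-1.47 ± 0.11). The mesenchymal filament gene VIM was at 59.8 and 74.3 against 43.2 and 43.1 (0.63 ± 0.11), with a mean of 691 in MDA-MB-468.

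Genes of small secreted and calcium-binding proteins, and of enzymes of detoxification and lipid metabolism, also differed in both directions. Of 15 S100 genes, 8 were higher in ZR-75-1 and 6 in T47D. S100A4, linked to cell motility, was at 61.4 and 56 against 699.7 and 696 (-3.57 ± 0.07), the reverse of S100A8, S100A9 and S100A14. Of 26 mucin, milk and secretory genes, 11 were higher in ZR-75-1 and 9 in T47D (42.3% and 34.6%). Of 47 detoxification and steroid-metabolising enzymes, 21 were higher in ZR-75-1 (44.7%) and 17 in T47D (36.2%). The glutathione transferase GSTM3 was at 1967 and 1883 against 8683 and 8318 (-2.14 ± 0.05), and the cytochrome gene CYP4X1 at least 11.5-fold higher in T47D. In cholesterol and fatty acid synthesis, 10 of 34 genes were higher in ZR-75-1 and 19 in T47D (29.4% and 55.9%). The fatty acid enzymes ACACA (-1.66 ± 0.07) and SCD (-1.01 ± 0.05) were higher in T47D, and ELOVL2, which lengthens polyunsaturated fatty acids, was at 957 and 910.2 against 78.4 and 85.1 (3.51 ± 0.14). Among ABC transporters, ABCG2, a drug exporter, was higher in ZR-75-1 (3.63 ± 0.17), and ABCC11 was at 37.7 and 32 against 1010.1 and 977 (-4.84 ± 0.15). The metallothioneins MT1X (1.90 ± 0.08) and MT1F (1.53 ± 0.07) were higher in ZR-75-1, 2 of the 3 called there among 11. That share, 27.3%, was near that of all genes, and 1 metallothionein was higher in T47D (9.09%).

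Of 45 chromatin genes tested, 16 were higher in ZR-75-1 and 19 in T47D (35.6% and 42.2%, beside 25.9% and 37.1% of all genes), and 2 and 5 of these reached 2-fold. The counts were 17 and 15 on median-centred arrays and 19 and 16 under quantile normalization. ARID1A, a subunit of the BAF remodelling complex, was at 774 and 744 in ZR-75-1, against 167 and 197 in T47D (2.07 ± 0.10). DNMT3A, which methylates DNA de novo, was at 335 and 327 against 50.6 and 59.2 (2.59 ± 0.14). SMARCA1, an ISWI ATPase, was not above background in ZR-75-1 and at 803 and 701 in T47D, at least 27.6-fold. The replication-dependent histone genes, near-identical in sequence, went both ways, with H2AC20 at 2019.8 and 2015 against 75.8 and 83.9 (4.66 ± 0.13) and H2BC12 at -2.20 ± 0.07. Their mRNA has no poly(A) tail as a rule, and the labelling was primed from poly(A). Of 17 HOX genes, 4 were higher in ZR-75-1 and 7 in T47D (23.5% and 41.2%), with HOXB2 at 37.7 and 33.3 against 856 and 952 (-4.67 ± 0.14). Of 30 protocadherin genes, 9 were higher in ZR-75-1 and 14 in T47D (30.0% and 46.7%), with PCDH19 at least 12.1-fold higher in ZR-75-1. The melanoma antigen gene PRAME was at least 5.96-fold higher in T47D, and of 11 cancer-testis antigen genes, 5 were called higher in T47D and 0 in ZR-75-1, where 25.9% of all genes were.

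CDK7, the kinase that THZ1 inhibits, was at 534 and 531 in ZR-75-1, against 831 and 829 in T47D (-0.64 ± 0.07, adjusted p = 1.12e-06), and its cyclin CCNH was at 484 and 428 against 949 and 936 (-1.05 ± 0.10). Both belong to TFIIH, the general factor that opens promoters and phosphorylates RNA polymerase II. Another TFIIH subunit, GTF2H1, was higher in ZR-75-1 (1.20 ± 0.08), and GTF2H5 lower (-0.67 ± 0.06). Of 25 genes of TFIIH and the transcription kinases, 5 were higher in ZR-75-1 and 14 in T47D (56.0% in T47D). That count in T47D fell to 7, beside 7 in ZR-75-1, under quantile normalization, and to 9 and 8 without ZR-75-1 replicate 1 and T47D replicate 2.

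Genes that differed in the same direction lay next to each other on several chromosomes. On chromosome 2, 54.9% of 823 tested genes were higher in ZR-75-1 and 13.5% in T47D, with a median of 0.34. On chromosome 3, 15.5% of 686 were higher in ZR-75-1 and 55.8% in T47D, with a median of -0.40. The shares of all tested genes were 25.9% and 37.1%. The order of genes was taken from the RefSeq annotation of GRCh38.p14. Over 12079 windows of 25 neighbouring tested genes, the median difference ranged from -1.86 to 1.28, with 39 windows at 1 or more and 179 at -1 or less. The lowest windows lay towards the end of chromosome 3. That from VPS8 to CCDC50 had a median of -1.86 with 19 of 25 genes called higher in T47D, and it holds CLDN1, RFC4 and the ribosomal protein paralog RPL39L (-1.86 ± 0.09). The next, from ECT2 to PARL, had -1.61 and holds the BAF subunit ACTL6A (-1.22 ± 0.06) and the mitochondrial genes MRPL47 (-1.30 ± 0.06) and NDUFB5, and that from ACAP2 to DRC9 had -1.57, with 22 of 25 genes at least 2-fold higher in T47D and TFRC among them. So several of the cell cycle, mitochondrial and reference genes above share this stretch.

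Other windows held further genes named above. On chromosome 11 the window from FAT3 to PGR had a median of -1.16, with 18 of 25 genes higher in T47D, and the one from SLC35F2 to NKAPD1 had -1.28, with 22 of 25. PGR itself, at -3.57, lay well past its neighbours' median. Towards ZR-75-1, the window from CLTC to TACO1 on chromosome 17 had a median of 1.13 with 22 of 25 genes higher there, and it holds RPS6KB1, TBX2, the phosphatase gene PPM1D and BCAS3. BCAS3, named after its value was seen, was at 2600.2 and 2808 in ZR-75-1, against 122 and 132 in T47D (4.41 ± 0.08). On chromosome 1, the window from S1PR1 to AMPD2 had 1.23 and holds PSMA5 and HENMT1, and that from PPM1J to WDR3 had 1.28. On chromosome 2, the window from CPSF3 to SMC6 had 0.85 and holds GREB1 and RRM2. DNA copy number was not measured, and its part in these runs was not tested.

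**Figure D4:**
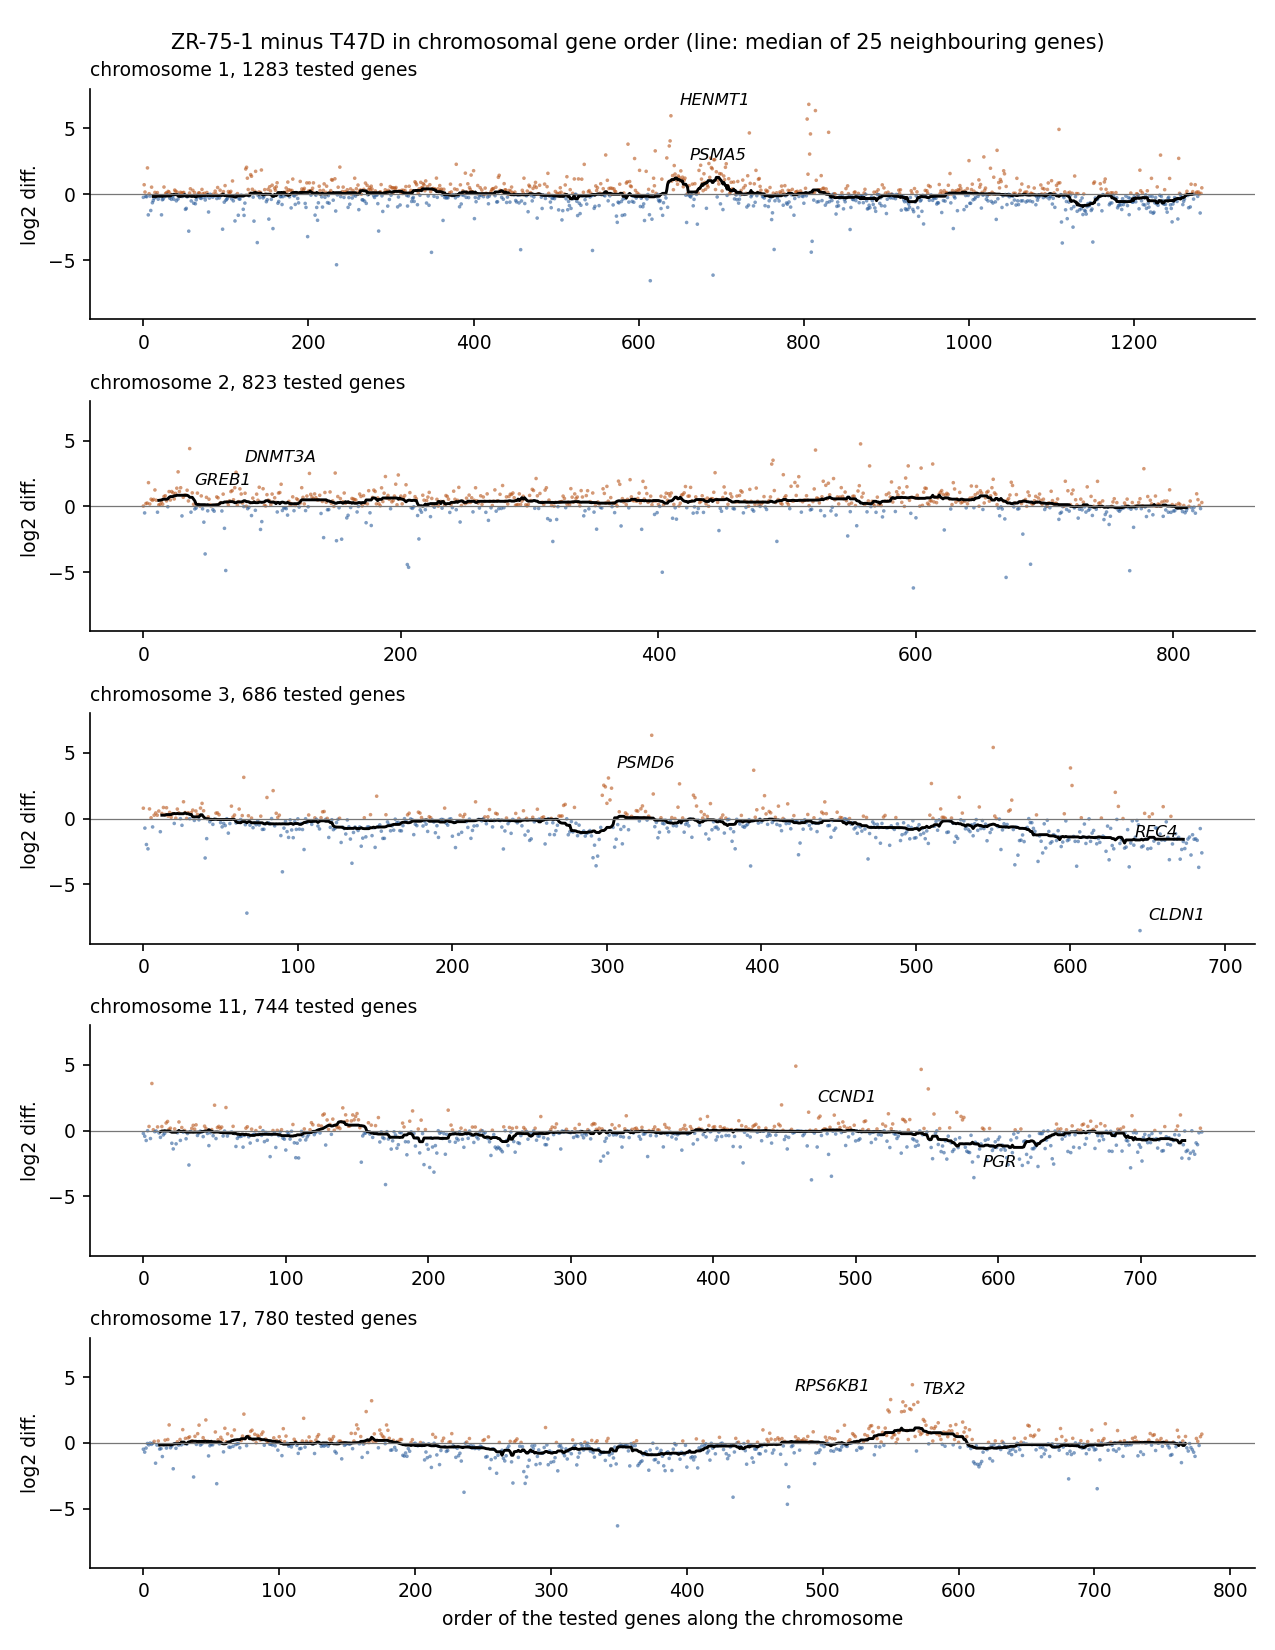
Difference of each tested gene (points, log2, ZR-75-1 minus T47D; orange above 0, blue below) in the order of the genes along chromosomes 1, 2, 3, 11 and 17, with the median of 25 neighbouring genes (black line). The line stays below 0 over the last stretch of chromosome 3, where CLDN1 and RFC4 lie, and rises above 1 around RPS6KB1 and TBX2 on chromosome 17.

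The difference between the lines was also measured on their THZ1-treated arrays, 2 per line and dose. These arrays did not enter the untreated means, but they share the fit's estimate of the spread. At 50 nM, 27.1% of all genes were higher in ZR-75-1 and 35.0% in T47D. Of the untreated genes that differed at least 2-fold, 906 of 911 and 1555 of 1564 were called in the same direction at 50 nM, none in the opposite one, and all 256 and 388 of those that differed at least 4-fold. The size of the difference had changed for 27 genes (0.214%). At 250 nM, 19.7% of genes were higher in ZR-75-1 and 46.5% in T47D. There 823 of the 911 and 1538 of the 1564 kept their call, and 14 of the 911 and none of the 1564 were called the opposite way.

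At 250 nM the difference had changed for 2807 genes (22.2%), 309 towards ZR-75-1 and 2498 towards T47D, and the median change over all genes was -0.12. The median intensity of the 250 nM arrays was 49.0 and 49.6 in ZR-75-1 and 55.4 and 59.7 in T47D, beside 56.5 to 63.4 on the 4 untreated arrays. The count depended on the scaling, and with median-centred arrays, added after the data were seen, 502 and 1440 genes had changed. Of the 256 genes at least 4-fold higher in untreated ZR-75-1, 94 had changed, 90 of them by shrinking, and of the 388 higher in T47D, 76 had changed and 55 had shrunk. For the first set, shrinking is a move towards T47D, the way most changed genes went. Both sets were picked on the DMSO arrays that also enter the change, and they were not counted under another scaling. DKK1 had a mean of 819 in untreated ZR-75-1 and of 64.2 at 250 nM, and its means in T47D were 42.1 and 25.4, the latter under the background of those arrays. IL20 went from 639 to 71.7 in ZR-75-1 and SOCS2 from 365 to 107, with T47D below background at both. SATB1 went from 2869 to 1025 in T47D, with ZR-75-1 below background at both. The fit called a change of the difference for these 4 genes, but its size rests on values at background and is no measured fold. STC2, measured in both lines, moved further apart, from -3.98 to -5.41. PGR (-3.57 and -3.76) and TFF1 (3.23 and 3.09) were near their untreated differences, and the change was called for neither (adjusted p = 0.51 and 0.28), though under quantile normalization it was called for TFF1 (-0.29).

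Among the named genes with a called change towards T47D were GATA3, FOXA1, CCND1, XBP1 and HOXC8. Changes that way were also called for TBX2 (-1.21), SPDEF (-0.55) and CDK7 (-0.52), though under quantile normalization not for SPDEF or CDK7. More named genes changed in each direction, and over all genes 309 changed towards ZR-75-1 and 2498 towards T47D. GATA3, whose difference was not called between the untreated lines, was at means of 1513 in ZR-75-1 and 3743 in T47D at 250 nM (-1.31 ± 0.09), and FOXA1, already lower, went from -0.36 to -1.22. CCND1 went from 1.4 to -0.05 and XBP1 from 1.00 to -0.18. The changes of -1.45 ± 0.08 and -1.18 ± 0.10 were called, but the sign at 250 nM depended on the scaling. XBP1 was called lower in ZR-75-1 (adjusted p = 0.0344), also under quantile normalization (-0.27, adjusted p = 0.00353), and was not called with median-centred arrays (0.04). CCND1 was not called at 250 nM, at 0.17 with median-centred arrays and 0.14 under quantile normalization. For the luminal factors TRPS1, TFAP2A and SOX9 and for ESR1, the change of the difference was not called (-0.20, -0.35, 0.13 and -0.49). HOXC8 turned from 1.13 to -0.88, both called (adjusted p = 1.99e-06 and 2.55e-05).

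**Figure D5:**
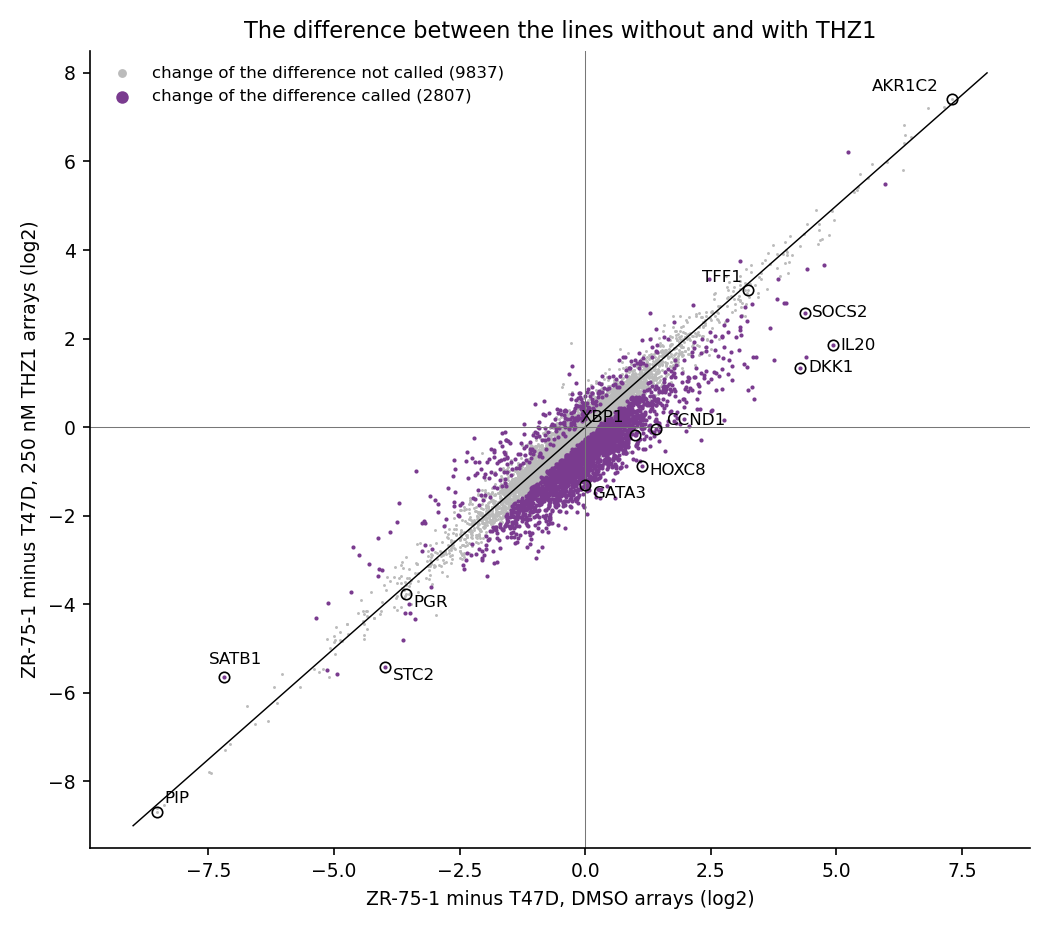
Difference of each tested gene between ZR-75-1 and T47D (log2) on the DMSO arrays (x axis) and on the 250 nM THZ1 arrays (y axis), with a line of equality; purple marks the 2807 genes whose change of the difference was called. The largest differences, such as PIP and AKR1C2, lie near the line, and DKK1, IL20 and SOCS2, whose 250 nM values in T47D are under background, lie below it.

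Set beside the triple-negative lines, ZR-75-1 and T47D were nearer to each other over all probe sets (r = 0.925 to 0.926) than either was to MDA-MB-468 (0.895 to 0.902) or BT-549 (0.861 to 0.867). For the genes that separate them, the triple-negative lines took neither side throughout. Untreated MDA-MB-468 was nearer to ZR-75-1 for 119 of the 256 genes at least 4-fold higher there and nearer to T47D for 166 of the 388 higher in T47D, and the single BT-549 array for 113 and 169. S100A9 (mean 5948), AKR1C2 (3195) and FZD6 (1258) were high in MDA-MB-468 as in ZR-75-1. CDKN2A (3737), CNN3 (2897) and HLA-B (2715) were high in it as in T47D. PIP (27.9), PGR (11.3), SATB1 (14.1), BMP7 (32.6) and TFF1 (41.3) were all low in it. Of these, PIP and SATB1 separated T47D, and BMP7 separated ZR-75-1, from the other ER+ line and MDA-MB-468. PGR and TFF1 were far above the MDA-MB-468 mean in both ER+ lines. The lower ER+ line still read 459 and 399.8 for PGR (ZR-75-1) and 2537 and 2457 for TFF1 (T47D).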

How the data were processed

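RNA from 21 samples of 4 lines was measured on 1-colour Affymetrix PrimeView arrays, from 100 ng of total RNA amplified from oligo(dT), per the labels' protocols. The authors deposited MAS5 intensities, linear and not logged, per the submitters' processing notes; the sources used here do not give the scaling step between arrays, and the mean intensity per array was 326 to 343. The labels describe spike-ins added by cell number, and no probe set carries their names. Here the values were floored at 1 and taken to log2, the brightest probe set per gene (mean over 21 arrays) was kept, and genes were tested if 1 of 12 group means reached the median of all values (log2 5.84), which kept 12644 of 18132. A limma 3.58.1 fit in R 4.3.3 of 9 group means on 18 arrays (BT-549, with single arrays, was left out) gave all contrasts, by empirical Bayes with a trend, and p-values were adjusted over all genes (Benjamini-Hochberg). Gene symbols came from the platform table, updated through RefSeq, and 44994 of 49395 probe sets had 1 symbol. Counts and plots were made in Python 3.11.15 with pandas 2.3.3. The fit was tested on simulated data. Genes are named by a rule: the 12 largest differences per direction, 20 receptor and luminal genes (19 were tested), the 4 members of each list with the largest moderated statistic (with both directions present where both were called), and genes whose direction turned at 250 nM. The members and lists were chosen with earlier results of these data known. Alternatives were another scaling, floor, filter or probe set rule, fewer arrays, no trend, a replicate block and leaving out each array. The number of arrays limits the precision.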

Additional observations from a re-analysis of the deposited data

Results flagged for a closer look

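Among the named genes, 15 had a difference called between untreated ZR-75-1 and T47D that itself changed between DMSO and 250 nM THZ1 by at least 1 on the log2 scale, tested in limma as an interaction of line and dose. The values are ZR-75-1 minus T47D, first on DMSO and then at 250 nM. With both lines above background on their untreated arrays, a difference towards ZR-75-1 shrank or turned for TBX2 from 2.91 to 1.70 (change -1.21), GDF15 from 2.31 to 1.22 (change -1.09), CCND1 from 1.4 to -0.05 (change -1.45), XBP1 from 1.00 to -0.18 (change -1.18), HOXC8 from 1.13 to -0.88 (change -2.01) and CD4 from 0.67 to -0.38 (change -1.05), and a difference towards T47D grew for STC2 from -3.98 to -5.41 (change -1.43) and E2F5 from -1.81 to -3.06 (change -1.26). For 7 further genes 1 line lay at or under background on untreated or treated arrays, so the fitted values are not measured folds: DKK1 from 4.28 to 1.34 (change -2.94), IL20 from 4.93 to 1.85 (change -3.08), SOCS2 from 4.37 to 2.58 (change -1.79), NR4A2 from 1.55 to 0.35 (change -1.20), SATB1 from -7.19 to -5.65 (change 1.53), MAML2 from -1.66 to -0.14 (change 1.52) and CDKN2B from -2.32 to -1.14 (change 1.19). For MAML2 and CDKN2B the mean of each line was under background at 250 nM. Under quantile normalization the change was smaller than 1 for TBX2 (-0.74), STC2 (-0.91), GDF15 (-0.93) and CD4 (-0.92), and with median-centred arrays for GDF15 (-0.96) and CD4 (-0.92). CD4 was dim, at 50.7 and 66.0 in untreated ZR-75-1 and 30.0 and 44.1 in T47D. The groups of 2 arrays were too small to look for single outlying arrays.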

How the results depend on the processing

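With 2 arrays per line, small differences rest on few values. Over 14 alternatives, the number of genes called higher in ZR-75-1 ran from 2946 to 3948 and in T47D from 4056 to 4782, and leaving out each array in turn gave 2946 to 3071 and 4157 to 4553. Median-centring moved the median of all genes by 0.09 and quantile normalization by 0.10, and the share of called genes higher in ZR-75-1 went from 41.1% to 48.0% and 49.1%. With the replicate block, 3258 and 4660 genes were called. Deviations of same-numbered arrays correlated at -0.07 across 12644 genes, so the shared numbers were not treated as a pairing. Of 184 named genes, 169 kept their direction and their call in each alternative that gave them a value. The sign turned for 3 that were not called: GATA3 read 0.086 with median-centred arrays and -0.17 to 0.16 when 1 array was left out, BCL2 -0.0014 to 0.33, and PECAM1 -0.52 to 0.0024. Genes whose difference changed at 250 nM numbered 502 towards ZR-75-1 and 1440 towards T47D with median-centred arrays, and 772 and 1814 with quantile normalization, where 309 and 2498 were found without them. The cause was not tested. A floor of 32 lies above the background, so genes on in 1 line were not counted under it.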
